A study of Mus musculus with 9 samples.

Results

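The 8 genes described here encode parts of the mitogen-activated protein (MAP) kinase cascades, and were chosen by name among the 750 genes measured in this series. Dusp4 and Dusp6 are dual-specificity phosphatases. Mapk3, Mapk8 and Mapk14 are MAP kinases, and Map2k1, Map2k2 and Map2k4 are the kinases that activate them. All 8 were measured in all 9 samples. The RNA came from mouse OT-1 T cells, CD8+ cells that carry one T cell receptor (TCR) specific for the ovalbumin (OVA) peptide SIINFEKL on MHC class I, and it was counted by hybridization of labelled probes (nCounter, PanCancer Immune Profiling Panel).

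The study compared 3 cultures with 3 samples each, and in every one the OT-1 splenocytes had first been primed with OVA peptide for 48 h in 50 IU/ml IL-2, purified for CD8+ cells and expanded for 4 days. In the macrophage and tumor culture, the OT-1 cells were kept for 24 h with macrophages pulsed for 4 h with 10 µM OVA peptide (OVA macrophages) and with CT2A-TRP2-B2mKO cells, a mouse glioma line without β2-microglobulin, and therefore without surface MHC class I, that was derived from single sorted cells. In the macrophage culture they were kept with OVA macrophages alone. In the OT-1 alone culture they were kept by themselves, so the comparison cells had met OVA peptide during priming, although the design text calls them naïve. The macrophages came from Ly6Chi bone marrow monocytes. By the labels there were 10 OT-1 cells to each tumor cell and 5 to each macrophage, while the methods text gives other ratios, and the methods name IL-2 in the medium only for the cells cultured alone, so IL-2 during the last day cannot be told apart from the culture. CD8+ cells were sorted before RNA extraction. Nothing in the labels says that the 3 samples of a culture came from separate mice, so the p-values measure only the spread between these samples, which may be technical.

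MAP kinase cascades pass a signal down a chain of 3 kinases. In T cells, engagement of the TCR activates Ras, the MAP2Ks MEK1 (Map2k1) and MEK2 (Map2k2), and then the ERK kinases, among them ERK1 (Mapk3), while stress and costimulation also act on JNK1 (Mapk8), through MKK4 (Map2k4), and on p38α (Mapk14). DUSP4 and DUSP6 remove the activating phosphates from MAP kinases, DUSP4 in the nucleus and DUSP6 mostly from ERK in the cytoplasm, and both genes are known as targets of ERK signalling that feed back on it. The measurements below are RNA levels, and they carry no information on phosphorylation.

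RefSeq promoter sequences (GRCm38.p6) were found for 6 of the 8 genes, and not for Dusp4 and Mapk3. They are shown here for the 3 genes of those 6 whose RNA differed from OT-1 alone in at least 1 culture, as the 250 bases before the first listed start site, 5′ to 3′ on the gene's strand. Dusp6 lies at chr10:99262981-99263230 on the plus strand, Mapk8 at chr14:33447159-33447408 on the minus strand and Mapk14 at chr17:28691092-28691341 on the plus strand. Capitals mark matches, on either strand, to the AP-1 site TGANTCA, the cAMP response element (CRE) TGACGTCA and its core TGACG, the ETS site CCGGAA, the EGR site GCGTGGGCG, the NFAT core GGAAA, and the NF-κB and CArG consensus sites. The CRE core is contained in the CRE, and the ETS site can overlap the NFAT core.
Dusp6: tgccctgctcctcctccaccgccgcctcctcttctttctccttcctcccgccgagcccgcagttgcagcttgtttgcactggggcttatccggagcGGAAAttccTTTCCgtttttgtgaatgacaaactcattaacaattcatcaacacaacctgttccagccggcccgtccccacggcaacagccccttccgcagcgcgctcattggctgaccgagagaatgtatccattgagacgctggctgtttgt
Mapk8: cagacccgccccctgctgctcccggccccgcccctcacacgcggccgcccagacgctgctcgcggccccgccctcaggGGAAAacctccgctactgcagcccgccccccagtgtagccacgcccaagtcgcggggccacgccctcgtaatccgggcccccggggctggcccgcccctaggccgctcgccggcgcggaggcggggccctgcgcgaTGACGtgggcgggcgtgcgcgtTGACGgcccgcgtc
Mapk14: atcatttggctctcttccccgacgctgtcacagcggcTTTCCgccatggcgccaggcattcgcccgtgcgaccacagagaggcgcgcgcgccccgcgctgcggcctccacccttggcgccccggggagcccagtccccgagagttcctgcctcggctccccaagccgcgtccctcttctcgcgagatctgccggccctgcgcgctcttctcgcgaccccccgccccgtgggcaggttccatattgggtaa

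The Dusp6 window held matches to the NFAT core only, at positions −154 and −145 counted back from the start site. That core is short, and 55.6% of 32851 promoter windows of the same length hold it. The Mapk8 window held the CRE core at −36 and −14, a motif found in 17.8% of windows, together with the NFAT core, and the Mapk14 window held the NFAT core alone. None of these 3 windows held the AP-1 site (6.75% of windows), the ETS site (12.0%) or the EGR site (0.536%). Mapk8 and Mapk14 each have another listed start site, not shown here. The Mapk14 window there held the ETS site at −229 and 6 NFAT cores, and the Mapk8 window held no match. These matches describe the letters of the windows and show no binding.

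The deposited values are log2 normalized counts, so a difference of 1 is a doubling. The depth behind them, recovered from the steps between low values, was a total of 697691 to 1186174 raw counts in 8 samples and 131961 in macrophage replicate 2. In that sample the 8 genes had 43.9 to 291 raw counts (a counting error of 0.085 to 0.22 log2 units), and in the other samples 130 to 3247 (0.025 to 0.13). The samples held T cell RNA: the 11 T cell markers summed to 92175 to 97419 normalized counts with macrophages and tumor, 82538 to 85629 with macrophages and 71810 to 72522 in OT-1 alone. The 29 macrophage markers summed to 1193 to 1395, 976 to 3379 and 776 to 973 in the same order, with the 3379 in macrophage replicate 2, and none was listed at 0. Cd68 was the highest of them in each culture, and 27, 27 and 28 of the 29 averaged under 100 normalized counts. Of 15 tumor or mesenchymal markers, 12 averaged under 100 with macrophages and tumor, and Vim, which T cells also express, was the highest, although it fell by 0.60 with macrophages and tumor and by 0.69 with macrophages relative to OT-1 alone. Spp1, which encodes osteopontin and stood on the same list, averaged 13.07 with macrophages and tumor, 13.74 with macrophages and 11.25 in OT-1 alone, with differences of 1.82 (adjusted p = 4.77e-05) and 2.49 (adjusted p = 1.51e-05) from OT-1 alone and of −0.67 between the co-cultures (adjusted p = 0.0190). Of the macrophage markers, the chemokine gene Ccl2 was 2.65 higher with macrophages and tumor than OT-1 alone (means 6.18 and 3.52, adjusted p = 0.00358). The receptor gene Tlr2 was 0.99 higher with macrophages than OT-1 alone (means 5.81 and 4.81, adjusted p = 0.0429). All 4 means lie under 100 normalized counts. Of 3 NK cell markers only Klrb1c was called. Its differences from OT-1 alone were −2.15 with macrophages and tumor (adjusted p = 0.0460) and −2.24 with macrophages (adjusted p = 0.0394). It averaged 5.17, 5.09 and 7.32 with macrophages and tumor, with macrophages and in OT-1 alone. The 9 B cell markers all averaged under 100. They summed to 205 to 299 with macrophages and tumor, 196 to 771 with macrophages and 149 to 209 in OT-1 alone. The 771 was in macrophage replicate 2. With macrophages over OT-1 alone the median difference was 0.99 for the macrophage list and 0.99 for the B cell list. The T cell sums, Spp1, Vim and Klrb1c differed between OT-1 alone and both co-cultures. The macrophage sums were low and did not overlap OT-1 alone, but 976 in macrophage replicate 1 lay close to 973. Of the 29 macrophage markers, 1 passed in each comparison with OT-1 alone. No B cell marker passed in any comparison, and the B cell sums overlapped between the cultures. Macrophage replicate 2 had the highest median log2 level of both lists, 6.48 for macrophage and 6.13 for B cell markers. The part of these markers in the results below was not tested. In sorted bulk RNA, fewer cells of a type and less RNA per cell cannot be told apart.

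Each group mean was compared by limma over all 9 samples, with p-values adjusted over 750 genes by Benjamini-Yekutieli (adjusted p below) and a threshold of 0.05. A comparison of 3 samples with 3 allows no two-sided exact permutation p under 0.1. Both comparisons with OT-1 alone use the same 3 samples of OT-1 alone. Among the 750 genes, the macrophage and tumor culture had 109 calls above OT-1 alone and 29 below it, the macrophage culture had 89 above OT-1 alone and 49 below it, and the macrophage and tumor culture had 20 above the macrophage culture and 4 below it. The median gene shifted by 0.40, 0.66 and −0.12 in these comparisons, and the median of the 310 genes with a mean level of at least 8 (the better measured genes below) shifted by 0.21, 0.02 and 0.17, so a change is read beside those values. Without macrophage replicate 2 the median gene shifted by 0.40, 0.20 and 0.17. The share of calls that were higher was 79.0%, 64.5% and 83.3% as deposited. It was 46.4% and 18.9%, with no call in the last comparison, when samples were centred on the median of all genes, 51.4%, 50.0% and 64.0% after quantile normalization, and 38.2%, 52.2% and 56.5% when samples were centred on genes with a mean of at least 8. The median of all genes was 7.80 in macrophage replicate 2, against 6.30 and 6.48 in macrophage replicates 1 and 3. Centring on it therefore lowered replicate 2 most. Over genes with a mean of at least 8 these samples had medians of 9.975, 10.045 and 10.04 in that order.

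Of the 8 genes, 3 passed the test between the macrophage and tumor culture and OT-1 alone (Dusp4, Dusp6 and Mapk14), all of them higher, where 18.4% of all genes passed, 14.5% higher and 3.87% lower. Between the macrophage culture and OT-1 alone 3 passed (Dusp4, Dusp6 and Mapk8), again all higher, where 18.4% of all genes passed, 11.9% higher and 6.53% lower. Between the macrophage and tumor culture and the macrophage culture, limma called none of the 8 genes, where 3.2% of all genes passed, 2.67% higher and 0.533% lower. At an unadjusted p under 0.05 there were 4 of the 8 and 157 of the 750 genes. A pairwise equal-variance test without limma's pooled spread called none of the 8 after adjustment, and before it 3 of the 8 and 136 of the 750. The median of the 8 was 0.32, 0.18 and 0.18 in the 3 comparisons. The shares of all genes include many genes at low levels, while all 8 averaged at least 100 normalized counts, as did 363 others. With genes under 100 left out, 178, 174 and 67 genes were called in the 3 comparisons, and 4, 5 and 1 of the 8.

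The phosphatases had the largest differences of the 8 genes. Dusp4, the nuclear phosphatase, had levels of 10.48, 10.31 and 10.18 with macrophages and tumor, 9.97, 10.19 and 9.75 with macrophages, and 8.10, 8.15 and 8.22 in OT-1 alone. Every co-culture sample lay at least 1.53 above the highest OT-1 alone sample, while the co-cultures overlapped each other by 0.01. Dusp4 averaged 10.32 ± 0.15 with macrophages and tumor, 9.97 ± 0.22 with macrophages and 8.16 ± 0.06 in OT-1 alone (SD, n = 3 each). It rose with macrophages and tumor by 2.17 over OT-1 alone (SE 0.13, 95% interval 1.86 to 2.48, 4.49-fold, adjusted p = 1.74e-04). With macrophages it rose by 1.81 over OT-1 alone (SE 0.13, 95% interval 1.50 to 2.13, 3.51-fold, adjusted p = 4.27e-04). Exact permutation p was 0.1 in both. Centring samples on the median of all genes lowered the second value to 1.12 and ended its call (adjusted p = 0.316).

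Dusp6, the phosphatase that acts mainly on ERK, had levels of 10.93, 10.75 and 10.96 with macrophages and tumor, 10.60, 10.44 and 10.48 with macrophages, and 9.23, 9.34 and 9.41 in OT-1 alone. The 3 cultures did not overlap: the lowest macrophage and tumor sample lay 0.15 above the highest macrophage sample, and the lowest macrophage sample lay 1.03 above the highest OT-1 alone sample. The means were 10.88 ± 0.11 with macrophages and tumor, 10.51 ± 0.08 with macrophages and 9.33 ± 0.09 in OT-1 alone (SD, n = 3 each). Dusp6 rose with macrophages and tumor by 1.55 over OT-1 alone (SE 0.09, 95% interval 1.33 to 1.77, 2.93-fold, adjusted p = 1.69e-04), and with macrophages by 1.18 (SE 0.09, 95% interval 0.96 to 1.40, 2.27-fold, adjusted p = 6.70e-04). Centring on the median of all genes ended both calls, at 1.04 (adjusted p = 0.861) and 0.49 (adjusted p = 1).

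By size of rise, Dusp4 was 6th and Dusp6 23rd of the 310 genes with a mean level of at least 8 with macrophages and tumor over OT-1 alone, and 8th and 22nd with macrophages over OT-1 alone. Among all 750 genes Dusp4 ranked 10 and Dusp6 ranked 37 in the first comparison, and 27 and 169 in the second. Most of the genes that outrank Dusp6 in the last of these have a mean level under 8. Low levels are the most open to counting error, but whether this bears on the rank was not tested. Without macrophage replicate 2 both calls over OT-1 alone remained for Dusp4 and for Dusp6.

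**Figure D1:**
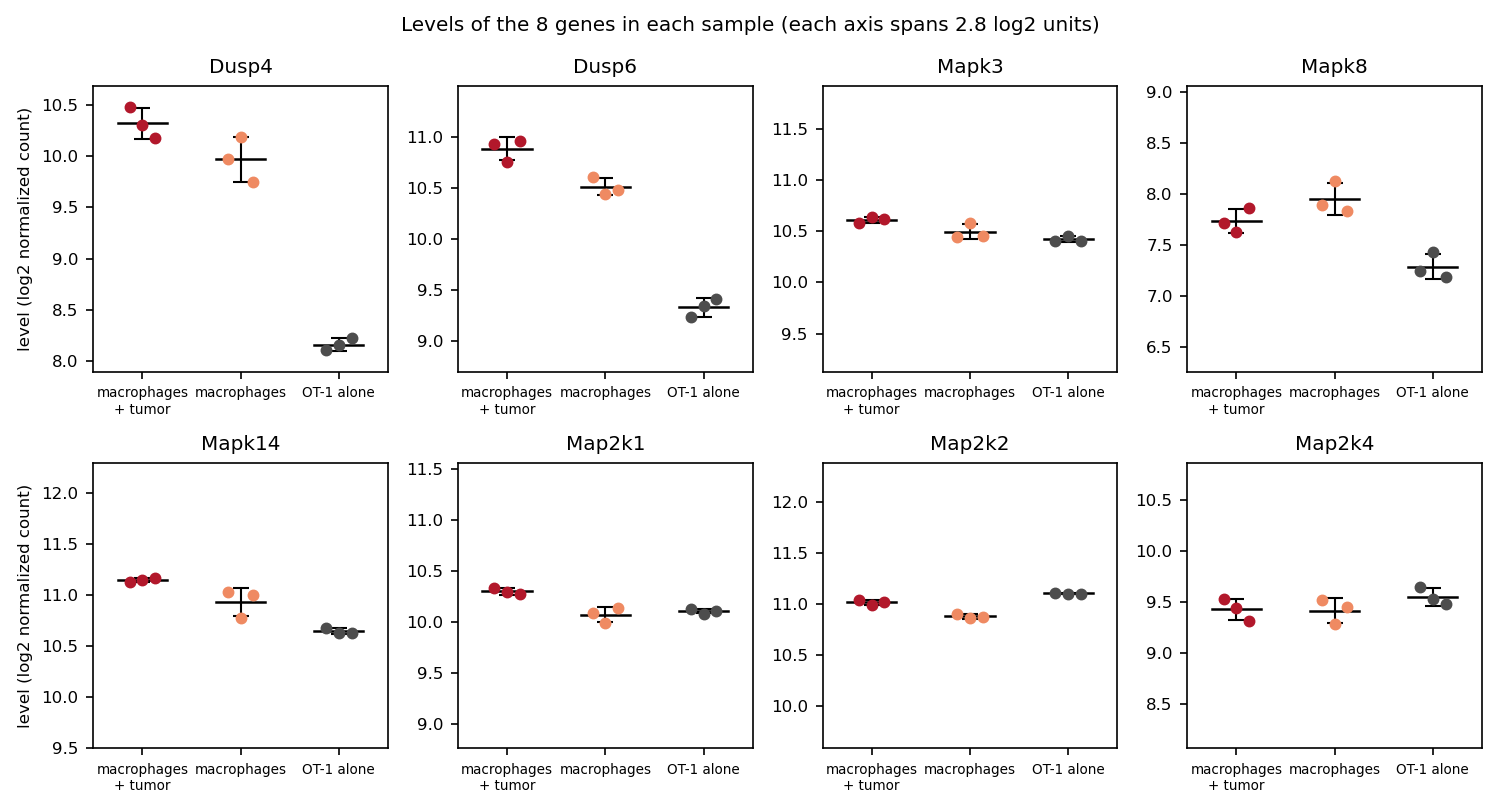
Levels in log2 normalized counts (vertical axis, 2.8 log2 units in each panel) of the 8 genes in the 3 cultures (horizontal axis), with a point per sample and the mean ± SD as a bar. Dusp4 lies between 8.10 and 8.22 in OT-1 alone and at 9.75 or more in every co-culture sample, while Mapk3, Map2k1, Map2k2 and Map2k4 keep within narrow ranges in all 9 samples.

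The MAP kinases moved less. Mapk14, which encodes p38α, had levels of 11.13, 11.15 and 11.17 with macrophages and tumor, 11.03, 10.78 and 11.00 with macrophages, and 10.68, 10.63 and 10.63 in OT-1 alone. The cultures did not overlap, and the low value with macrophages was in replicate 2. Mapk14 rose with macrophages and tumor by 0.50 over OT-1 alone (SE 0.09, 95% interval 0.30 to 0.70, 1.42-fold, adjusted p = 0.0243), a rise above the median of the better measured genes (0.21) and near that of all genes (0.40). Under all 3 other scalings the call was lost, and with centring on the median of all genes the sign turned to −0.01. Leaving out 1 sample also ended it for each of the 9 samples except macrophage replicates 1 and 2 (adjusted p 0.0539 to 0.141). With macrophages the difference from OT-1 alone was 0.29 (95% interval 0.09 to 0.49, adjusted p = 0.292), and 0.37 (adjusted p = 0.0195) without replicate 2. The macrophage and tumor culture exceeded the macrophage culture by 0.21 (95% interval 0.01 to 0.41, adjusted p = 1), so the 2 rises over OT-1 alone were not shown to differ.

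Mapk8, which encodes JNK1 and was read from the fewest counts of the 8, had levels of 7.72, 7.63 and 7.86 with macrophages and tumor, 7.89, 8.13 and 7.84 with macrophages, and 7.25, 7.43 and 7.19 in OT-1 alone. Both co-cultures lay above OT-1 alone in every sample and overlapped each other. Mapk8 rose with macrophages by 0.66 over OT-1 alone (SE 0.12, 95% interval 0.39 to 0.94, 1.58-fold, adjusted p = 0.0310), which equals the shift of the median gene in that comparison (0.66) and exceeds that of the better measured genes (0.02). The 3 other scalings ended this call and centring on the median of all genes turned it to −0.03. It was lost with the pairwise equal-variance test (adjusted p = 0.169) and in a fit of only the 2 groups compared (adjusted p = 0.147). It was also lost when any 1 of the 9 samples other than macrophage replicate 2 was left out (adjusted p 0.0502 to 0.162). Leaving out that replicate gave 0.575 (adjusted p = 0.0381), beside a median gene shift of 0.20. With macrophages and tumor the difference from OT-1 alone was 0.45 (95% interval 0.17 to 0.72, adjusted p = 0.184), which passed with genes under 100 normalized counts left out (adjusted p = 0.0273), with sample weights (adjusted p = 0.0324) and with Benjamini-Hochberg adjustment (adjusted p = 0.0256), and the difference between the macrophage and tumor culture and the macrophage culture was −0.22 (95% interval −0.49 to 0.06, adjusted p = 1).

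Mapk3, which encodes ERK1, had levels of 10.58, 10.64 and 10.62 with macrophages and tumor, 10.45, 10.58 and 10.46 with macrophages, and 10.41, 10.46 and 10.41 in OT-1 alone. All 9 values fell within a narrow range, and the macrophage samples overlapped or touched both other cultures. The difference from OT-1 alone was 0.19 with macrophages and tumor (95% interval 0.02 to 0.35, adjusted p = 0.681) and 0.07 with macrophages (95% interval −0.09 to 0.23, adjusted p = 1), and each was below 0 under all 3 other scalings. With the pairwise equal-variance test the first of them passed (adjusted p = 0.0486). The intervals leave room for changes of up to 0.35 in this gene.

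The MAP2Ks had differences no larger than 0.23 in any comparison. Map2k1, which encodes MEK1, had levels of 10.33, 10.29 and 10.27 with macrophages and tumor, 10.09, 9.99 and 10.13 with macrophages, and 10.12, 10.08 and 10.11 in OT-1 alone. Every macrophage and tumor sample was above every other sample, by differences of 0.23 over macrophages (95% interval 0.06 to 0.39, adjusted p = 0.784) and 0.19 over OT-1 alone (95% interval 0.03 to 0.36, adjusted p = 0.584). Neither passed the test as deposited. The difference from OT-1 alone was below 0 under the 3 other scalings, and it passed with sample weights (adjusted p = 0.0161) and with the pairwise equal-variance test (adjusted p = 0.0312, in both cases higher with macrophages and tumor).

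Map2k2, which encodes MEK2, had levels of 11.04, 10.99 and 11.02 with macrophages and tumor, 10.90, 10.86 and 10.87 with macrophages, and 11.11, 11.10 and 11.10 in OT-1 alone. The 3 cultures did not overlap, and OT-1 alone was the highest. Map2k2 differed from OT-1 alone by −0.23 with macrophages (95% interval −0.37 to −0.08, adjusted p = 0.216) and by −0.09 with macrophages and tumor (95% interval −0.23 to 0.06, adjusted p = 1). With genes under 100 normalized counts left out the macrophage difference passed the test (adjusted p = 0.0184), and so it did under 5 other settings. With macrophages and tumor it passed under 2 other scalings, after quantile normalization (−0.39, adjusted p = 0.0276) and after centring on genes with a mean of at least 8 (−0.47, adjusted p = 0.00736).

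Map2k4, the kinase that activates JNK and p38, had levels of 9.53, 9.44 and 9.32 with macrophages and tumor, 9.52, 9.29 and 9.45 with macrophages, and 9.65, 9.53 and 9.48 in OT-1 alone. The 3 cultures overlapped. Its differences were −0.12 with macrophages and tumor and −0.13 with macrophages from OT-1 alone, and 0.01 between the co-cultures (adjusted p = 1 in each). After centring on genes with a mean of at least 8, the first of these was −0.51 and passed (adjusted p = 0.0362).

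In all, 7 of the 8 genes did not overlap between the macrophage and tumor culture and OT-1 alone, where 57.1% of all genes did not (43.5% higher and 13.6% lower). Of the 7, Map2k2 was lower and the others were higher. Between the macrophage culture and OT-1 alone 5 of the 8 did not overlap, where 53.1% of all genes did not (38% higher and 15.1% lower), and Map2k2 was again the lower one. The 6 kinases had a median of 0.19 and a range of −0.12 to 0.50 with macrophages and tumor over OT-1 alone, and a median of 0.02 and a range of −0.23 to 0.66 with macrophages over OT-1 alone. Both kinase medians lie close to those of the better measured genes, 0.21 and 0.02.

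**Figure D2:**
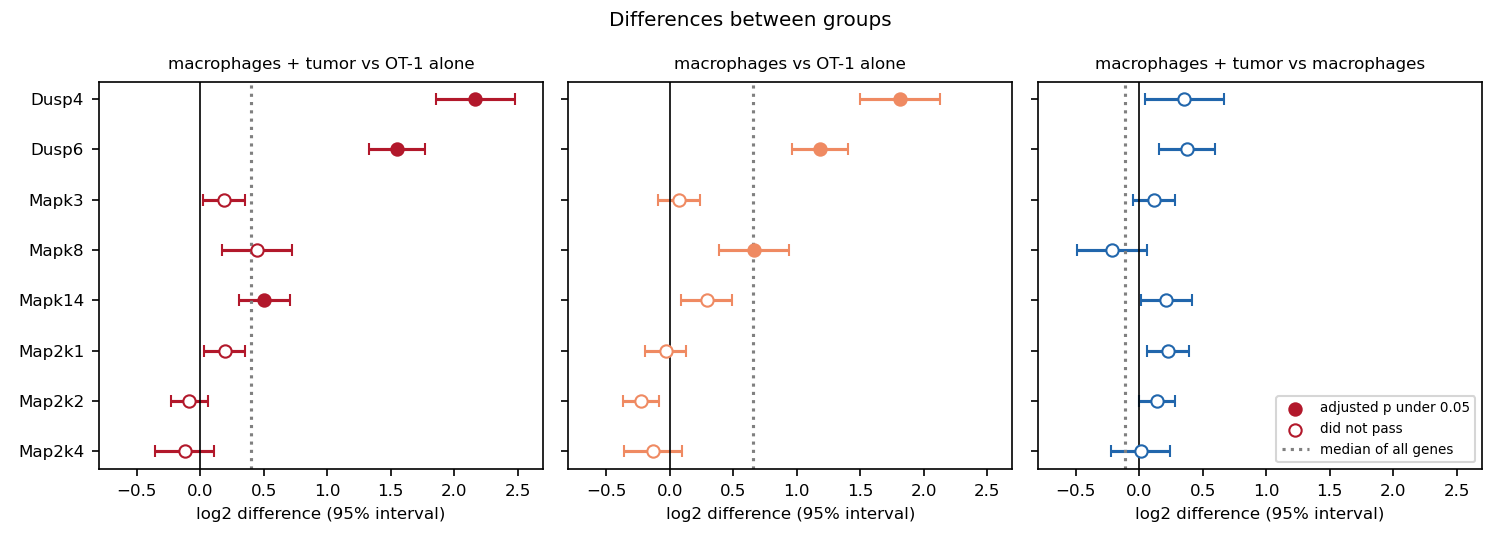
Log2 differences between cultures (horizontal axis, with 95% intervals) of the 8 genes (vertical axis) in the 3 comparisons; filled points passed an adjusted p of 0.05, and the dotted line is the median of all 750 genes. Dusp4 and Dusp6 lie apart from the 6 kinases on the right in both comparisons with OT-1 alone, and Mapk14 and Mapk8 lie near the dotted line where they passed, calls that other scalings ended or turned in sign. Without macrophage replicate 2 the median of all genes was 0.20 with macrophages over OT-1 alone.

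Addition of the tumor cells was compared directly, between the macrophage and tumor culture and the macrophage culture. Dusp6 was 0.37 higher with macrophages and tumor (SE 0.09, 95% interval 0.15 to 0.59, 1.30-fold, adjusted p = 0.412, exact permutation p = 0.1), without overlap. Dusp4 was 0.35 higher (SE 0.13, 95% interval 0.04 to 0.67, 1.28-fold, adjusted p = 1, exact permutation p = 0.2). Neither passed the test over 750 genes as deposited. Dusp6 passed it when genes under 100 normalized counts were left out (adjusted p = 0.0483), with a trend on the mean level (adjusted p = 0.0184) and with estimated sample weights (adjusted p = 0.0197). Dusp4 passed it with sample weights alone (0.63, adjusted p = 0.00527). Without overlap between these cultures were 4 of the 8 genes (Dusp6, Mapk14, Map2k1 and Map2k2), all higher with macrophages and tumor, where 24.9% of all genes did not overlap (20.3% higher and 4.67% lower).

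Differences between genes of one sample do not change when a sample is rescaled by a single factor, as in both centrings, though quantile normalization can change them. Since each gene has its own probe, only the shift of such a difference between cultures is read, not its sign. The mean of Dusp4 and Dusp6 minus the mean of the 6 kinases was 0.65, 0.51 and 0.53 with macrophages and tumor, 0.31, 0.38 and 0.16 with macrophages, and −1.21, −1.13 and −1.01 in OT-1 alone. The 3 cultures did not overlap. The difference averaged 0.56 ± 0.08 with macrophages and tumor, 0.28 ± 0.11 with macrophages and −1.11 ± 0.10 in OT-1 alone (SD, n = 3 each), shifts of 1.67 and 1.39 over OT-1 alone and of 0.28 between the co-cultures. In all 6 co-culture samples the phosphatases stood higher relative to the kinases of the same sample than in any OT-1 alone sample.

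Within samples, Dusp4 also increased more than Dusp6. Dusp4 minus Dusp6 shifted by 0.61 with macrophages and tumor and by 0.63 with macrophages over OT-1 alone, in every sample, and by −0.02 between the co-cultures. Dusp6 minus Mapk3, the phosphatase against its ERK1 substrate, shifted by 1.37 with macrophages and tumor and by 1.11 with macrophages over OT-1 alone, and by 0.26 between the co-cultures. Among the kinases, Mapk8 minus Mapk3 shifted by 0.26 with macrophages and tumor and by 0.59 with macrophages over OT-1 alone, and was 0.33 lower with macrophages and tumor than with macrophages. Mapk14 minus Mapk3 shifted by 0.32 with macrophages and tumor, without overlap, and by 0.22 with macrophages, where replicate 2 overlapped OT-1 alone. Map2k1 minus Map2k2 shifted by 0.28 with macrophages and tumor and by 0.19 with macrophages over OT-1 alone.

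**Figure D3:**
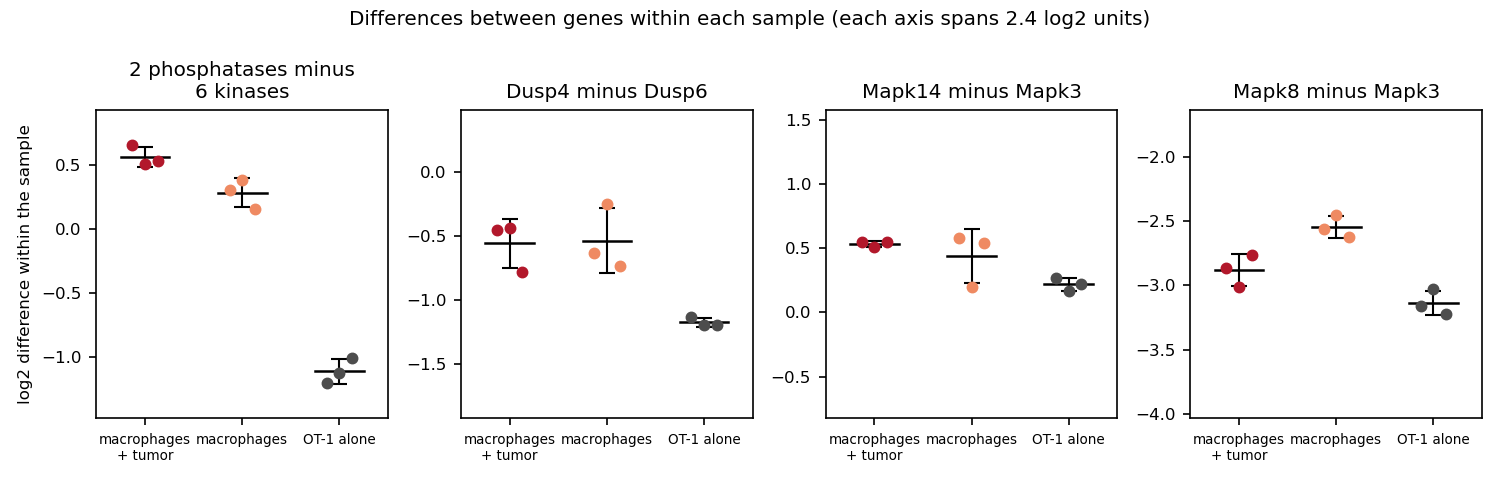
Differences between genes within each sample in log2 units (vertical axis, 2.4 log2 units in each panel) in the 3 cultures (horizontal axis), with a point per sample and the mean ± SD as a bar. The difference between the 2 phosphatases and the 6 kinases averages 0.56 with macrophages and tumor, 0.28 with macrophages and −1.11 in OT-1 alone.

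The panel measured 12 of 69 other genes listed for MAP kinase cascades. Map3k1, which encodes the MAP3K MEKK1, was the only 1 called in any comparison. Its levels were 9.80, 9.65 and 9.81 with macrophages and tumor, 9.55, 9.15 and 9.45 with macrophages, and 9.08, 9.19 and 9.14 in OT-1 alone. It rose with macrophages and tumor by 0.62 over OT-1 alone (SE 0.12, adjusted p = 0.0443), against 0.25 with macrophages (adjusted p = 1), and the direct difference of 0.37 did not pass the test (adjusted p = 0.857). The median of the 12 was 0.04, 0.06 and 0.15 in the 3 comparisons, beside 0.40, 0.66 and −0.12 for all genes. For the better measured genes it was 0.21, 0.02 and 0.17.

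Map3k5, the stress-activated MAP3K ASK1, differed from OT-1 alone by 0.25 with macrophages and tumor (adjusted p = 0.393) and by 0.27 with macrophages (adjusted p = 0.261). Mapkapk2, a kinase that p38 activates, differed by 0.02 and −0.15 (adjusted p = 1 in both).

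Of 33 transcription factors and early genes listed downstream of MAP kinases, 16 were measured. With macrophages and tumor 3 rose over OT-1 alone and none fell, with macrophages 3 rose and 1 fell, and between the co-cultures limma called none. These counts lie near the shares of all genes that passed, 18.4% in both comparisons with OT-1 alone, and the medians of the 16 (0.32, 0.14 and 0.04) stand beside medians of all genes of 0.40, 0.66 and −0.12. The better measured genes had medians of 0.21, 0.02 and 0.17. Egr1, an early growth response factor induced through ERK, had levels of 10.58, 10.45 and 10.56 with macrophages and tumor, 10.32, 10.10 and 10.02 with macrophages, and 8.68, 8.87 and 9.15 in OT-1 alone. Over OT-1 alone it rose by 1.63 with macrophages and tumor (SE 0.14, adjusted p = 8.44e-04) and by 1.25 with macrophages (SE 0.14, adjusted p = 0.00364). As with Dusp6, the 3 cultures did not overlap.

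Egr2, of the same family, had levels of 7.14, 7.25 and 6.91 with macrophages and tumor, 7.58, 7.48 and 7.62 with macrophages, and 6.10, 6.20 and 6.40 in OT-1 alone. It rose by 0.87 with macrophages and tumor (SE 0.12, adjusted p = 0.00918) and by 1.33 with macrophages (SE 0.12, adjusted p = 0.00140), and here the macrophage culture was the highest, by a difference between co-cultures of −0.46 that did not pass (adjusted p = 0.481). Egr3 rose with macrophages by 0.87 over OT-1 alone (SE 0.16, adjusted p = 0.0415) and was 0.75 higher with macrophages and tumor (SE 0.16, adjusted p = 0.0785).

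The AP-1 subunit gene Fos had levels of 9.15, 8.12 and 8.42 with macrophages and tumor, 6.34, 8.40 and 6.64 with macrophages, and 4.90, 5.56 and 5.84 in OT-1 alone. The highest macrophage value was in the shallow replicate 2. All OT-1 alone values of Fos lie under 100 normalized counts, so the size of a rise over them rests on a low reference. Fos rose with macrophages and tumor by 3.13 over OT-1 alone (SE 0.58, adjusted p = 0.0382), and its other differences did not pass. Its AP-1 partner Jun had levels of 8.71, 8.68 and 8.67 with macrophages and tumor, 7.84, 7.32 and 7.81 with macrophages, and 8.19, 8.26 and 7.82 in OT-1 alone. Every macrophage and tumor sample was above all others, by 1.03 over macrophages (SE 0.17, adjusted p = 0.0903) and 0.60 over OT-1 alone (SE 0.17, adjusted p = 0.289), neither of which passed. Cdkn1a, which encodes the cell cycle inhibitor p21, fell by 1.89 with macrophages relative to OT-1 alone (SE 0.33, adjusted p = 0.0318), and its difference with macrophages and tumor was −1.04 (SE 0.33, adjusted p = 0.408).

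**Figure D4:**
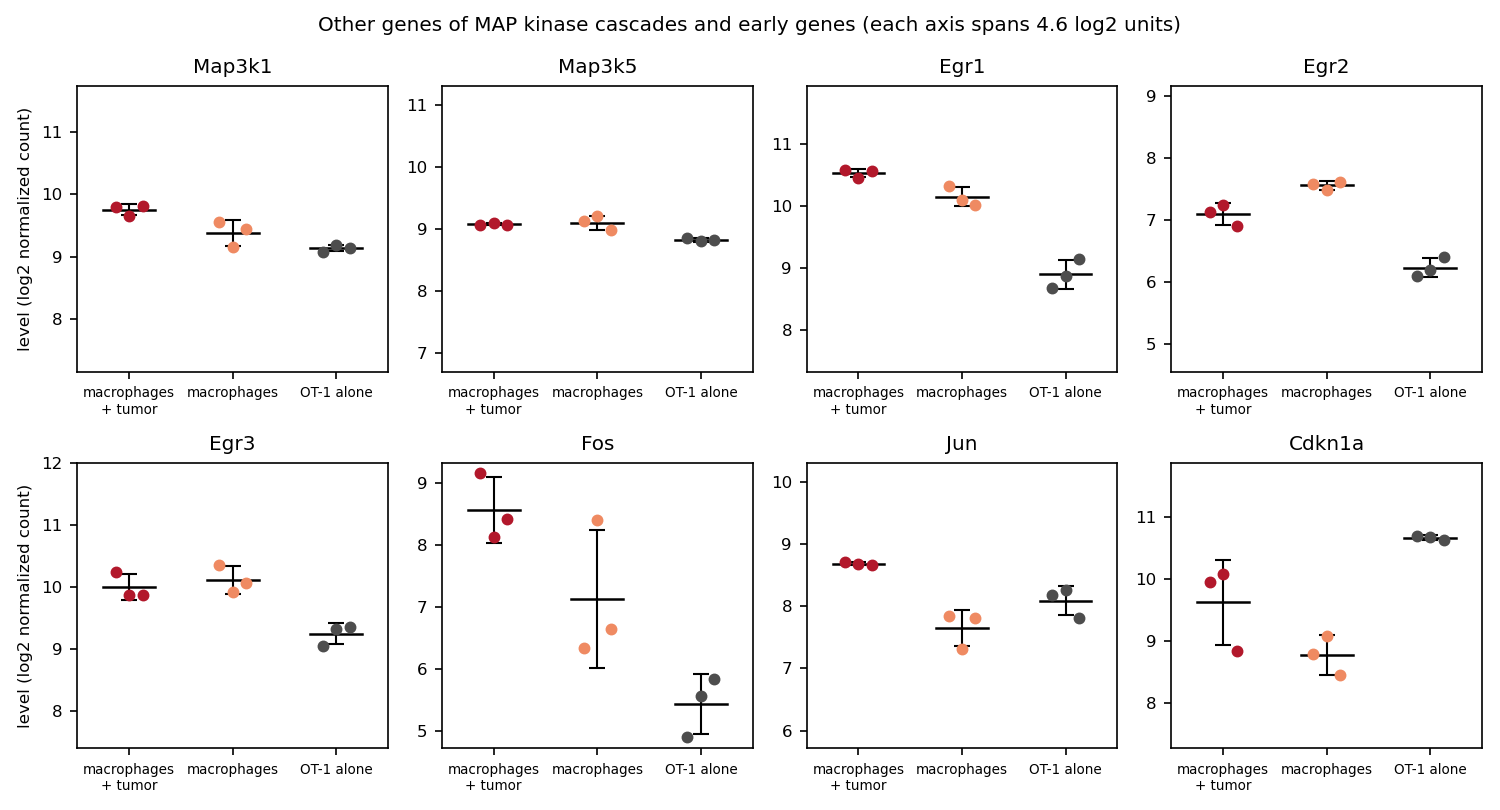
Levels in log2 normalized counts (vertical axis, 4.6 log2 units in each panel) of 2 other MAP kinase cascade genes and 6 early genes in the 3 cultures (horizontal axis), with a point per sample and the mean ± SD as a bar. Map3k5 lies between 8.80 and 9.20 in all 9 samples, and Egr1 lies at 10.02 or more in every co-culture sample and at 9.15 or less in OT-1 alone.

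Of 33 genes listed for TCR signalling in general, 21 were measured. Over OT-1 alone 7 rose and none fell with macrophages and tumor, 6 rose and 2 fell with macrophages, and between the co-cultures limma called none. Of all genes 14.5% rose and 3.87% fell in the first comparison, and 11.9% rose and 6.53% fell in the second. Those shares include many genes at low levels. With genes under 100 normalized counts left out, a filter that kept 363 genes besides the 8, 137 rose and 41 fell in the first. In the second 101 rose and 73 fell. The list itself was not counted under that filter. The list's medians of 0.39, 0.27 and 0.11 stand beside medians of all genes of 0.40, 0.66 and −0.12. Those of the better measured genes were 0.21, 0.02 and 0.17. Among those that rose in both were Cd5, an inhibitory coreceptor (1.17 and 1.16), the NFAT factor Nfatc1 (0.82 and 1.05), the kinase Zap70 (0.73 and 0.63) and the TCR subunits Cd3e and Cd3g, and Cd6 rose with macrophages and tumor. Of those that fell, the TCR subunit gene Cd247 fell by 0.36 (SE 0.07, adjusted p = 0.0460) with macrophages relative to OT-1 alone.

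The genes whose levels followed each of the 4 called genes most closely were named by Pearson's r over the 9 samples, among 363 genes with a mean of at least 100 normalized counts. The 9 samples fall into 3 cultures, so these values describe mainly the order of the cultures. Dusp4 was followed by Ifng (0.99), which encodes interferon-γ, and by the NK receptor genes Klrc1 (0.99) and Klrc2 (0.99). Dusp6 was followed by the inhibitory receptor gene Tigit (1.00), by Nt5e (0.99), which encodes the ectonucleotidase CD73, and by Egr1 (0.99). Among those that followed Mapk14 were Cd6 (0.98) and the kinase gene Lck (0.97), and Mapk8 by the Toll-like receptor adaptor gene Tirap (0.98), Tnfsf8 (0.95) and Alcam (0.94).

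**Figure D5:**
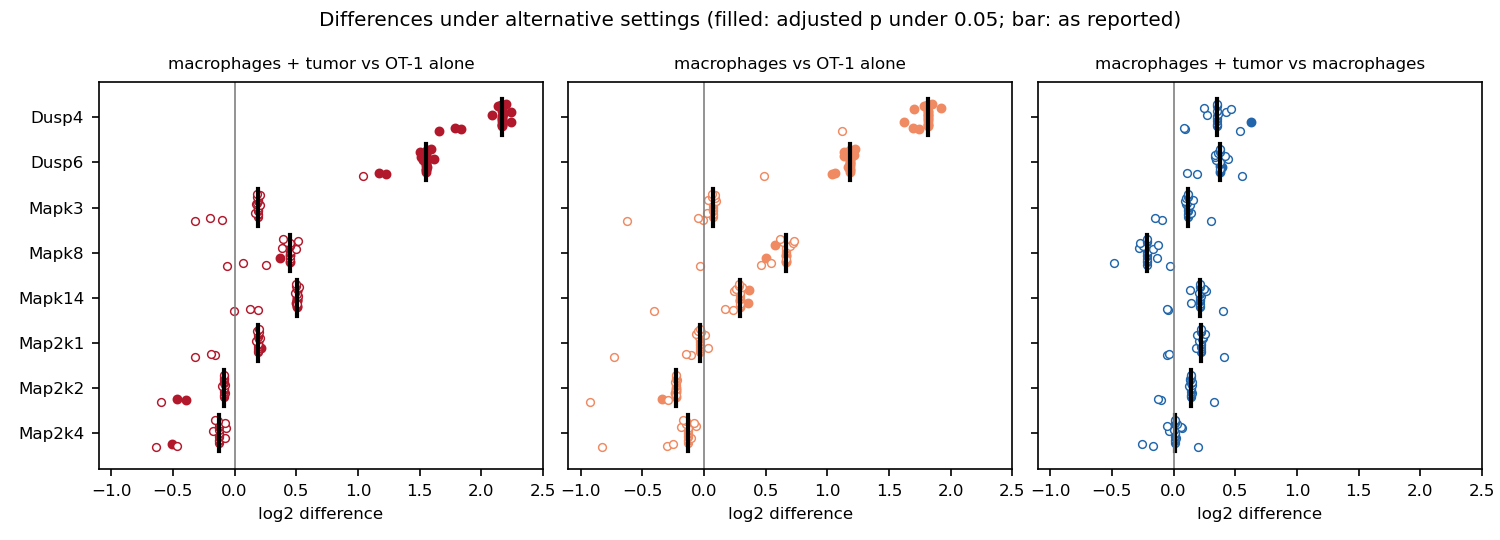
Log2 differences (horizontal axis) of the 8 genes (vertical axis) in the 3 comparisons as reported (bar) and under 20 alternative settings (points, filled where adjusted p was under 0.05). Dusp4 and Dusp6 stay above 0 in every setting and comparison, while the kinases cross 0 under at least 1 other scaling in at least 1 comparison.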

How the data were processed

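RNA of sorted CD8+ OT-1 cells was counted with nCounter probes in 9 samples, 3 per culture. Normalization and quality control were run by the authors in nSolver 4.0.70 and the analysis in nSolver Advanced Analysis 2.0.134, and they deposited log2 normalized values of 750 genes with 2 decimals. Which reference genes set the scale is not given in the sources used here. Groups were taken from the sample labels.

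Group means were compared here on the deposited log2 values with lmFit and eBayes of limma 3.58.1 (R 4.3.3), in a model with a mean for each culture over all 9 samples and no filter, with two-sided p-values adjusted by Benjamini-Yekutieli, as named in the methods, over 750 genes at 0.05. The script was tested on 20 simulated data sets. Single genes were also compared by exact permutation of 3 samples against 3. Depth was recovered from the spacing of values under 30 raw counts. Counting errors cover counting alone. Replicate pairs of a culture all differed by more than counting noise. Genes named were the 8 members, the called genes of the pathway lists (up to 5 per list with values) and the 3 genes most like each called member. Some genes of these lists are not reported here. The members and lists were chosen with earlier results of these data known. Alternatives were 3 other scalings, a filter, a replicate block, sample weights, a trend, Benjamini-Hochberg, only 2 groups, an unpaired equal-variance t-test and leaving out each sample.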

Additional observations from a re-analysis of the deposited data

How the results depend on the processing

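Dusp4 with macrophages and tumor over OT-1 alone kept its call under 20 of 20 alternatives, Dusp6 under 19, and with macrophages over OT-1 alone each kept it under 19. The exceptions were with centring on the median of all genes, at 1.04 for Dusp6 with macrophages and tumor and at 1.12 and 0.49 for Dusp4 and Dusp6 with macrophages. This centring lowered macrophage replicate 2 the most, the sample with the highest median of all genes (7.80). That centring also turned Mapk14 (−0.0067, with macrophages and tumor) and Mapk8 (−0.032, with macrophages). Between the co-cultures Dusp6 passed at 0.37 with genes under 100 normalized counts left out, at 0.37 with a trend on the mean level and at 0.40 with sample weights, and Dusp4 at 0.63 with sample weights. The cause was not tested.

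Members called (3, 3 and 0 as reported) were 1 and 0 with centring on the median of all genes in the comparisons with OT-1 alone, 5, 5 and 2 with sample weights, 5 with the t-test for macrophages and tumor over OT-1 alone, and 5 with the filter, the trend or Benjamini-Hochberg for macrophages over OT-1 alone. Between the co-cultures the filter and the trend each called 1. Calls over all genes rose as well, to 177 with the t-test for macrophages and tumor over OT-1 alone. For macrophages over OT-1 alone they rose to 174 with the filter and 173 with the trend. The filter kept 363 genes besides the 8.

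Genes called (138, 138 and 24) were 28, 37 and 0 with centring on the median of all genes (in the last, 62 had an unadjusted p under 0.05) and 280, 301 and 131 with sample weights. For macrophages over OT-1 alone they were 226 with Benjamini-Hochberg, 73 with only 2 groups and 80 with the t-test. Between the co-cultures they were 67 with the filter, 66 with the trend, 62 with Benjamini-Hochberg, 0 with only 2 groups (106 unadjusted) and 0 with the t-test (136 unadjusted). Leaving out 1 sample gave 96 to 223 for macrophages and tumor over OT-1 alone, 83 to 170 for macrophages over OT-1 alone and 11 to 34 between the co-cultures, the highest of each without macrophage replicate 2. The members called then numbered 2 to 3, 2 to 4 and 0.

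Same-numbered samples of different cultures deviated with correlations of −0.37 to 0.46, not all above 0.1. The numbers were therefore not taken to pair the samples, and whether they do is not given in the sources used here. With a replicate block 111, 96 and 10 genes were called, with 2, 2 and 0 members, and the calls of Mapk14 (adjusted p = 0.0872) and Mapk8 (adjusted p = 0.108) were lost. Depth limits Mapk8 most, with 43.9 raw counts in macrophage replicate 2.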
